A study of Mus musculus with 30 samples.

Results

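Early granulocyte progenitors of mouse bone marrow were taken here as single cells that carried Elane RNA without Fcnb RNA. Elane encodes neutrophil elastase, a serine protease of the primary granules, and Fcnb encodes ficolin-B, which appears at the next step of granulocyte maturation. A cell belonged to the class when at most 10% of its unique molecular identifiers (UMIs, which count captured RNA molecules) came from mitochondrial genes, Elane reached 15 per 10000 UMIs, Fcnb stayed under 5 per 10000, and Ngp, Camp and Ltf, genes of the later secondary granules, together stayed under 20 per 10000. The rule gave 6031 cells, 24.7% of the 24396 cells kept by the mitochondrial limit and part of 24693 in the table. The study profiled sorted lineage-negative, c-Kit-positive bone marrow cells (LK cells, a mixture of stem and committed progenitors) by droplet 3′ RNA sequencing, with 3 libraries per genotype from separate mice. The control libraries (WT) came from Mettl3 fl/fl mice and the knockout libraries (Mettl3KO) from Mx1-Cre; Mettl3 fl/fl mice, all labelled as 3 weeks after pIpC treatment. Both genotypes therefore carry the floxed allele and pIpC, and they differ by the Mx1-Cre transgene, whose Mx1 promoter responds to interferon in many cell types besides blood cells. Mouse age, sex and the part of Mettl3 that is flanked by loxP sites were not given in the labels.

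Mettl3 is the catalytic subunit of the complex that writes N6-methyladenosine (m6A), a mark on messenger RNA that affects its decay, splicing and translation. Granulocyte progenitors pass through an ordered programme. Cells that share a monocyte fate first express Mpo and Irf8, then make the primary granule proteases Elane, Prtn3 and Ctsg together with the membrane protein Ms4a3, and later turn on the transcription factor Cebpe and the secondary granule genes. The factors C/EBPα, PU.1, MYB and GFI1 are known regulators of the protease genes.

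The sequences from 250 bases before to 50 bases after the start sites of Elane, which sets the class, and Ms4a3, a marker that differed between genotypes among members with Elane from 15 to under 60 per 10000 but not past the threshold in members as a whole, are given here on the gene's own strand from RefSeq, build GRCm38.p6. Capitals mark matches on either strand to TTGCNNAA, a C/EBP motif, or to GAGGAA, an ETS motif of the kind PU.1 binds. Neither promoter matched AACNGTT, a MYB motif, on either strand. Elane lies at chr10:79886062-79886361 in this window and Ms4a3 at chr19:11640802-11641101.
Elane promoter, plus strand: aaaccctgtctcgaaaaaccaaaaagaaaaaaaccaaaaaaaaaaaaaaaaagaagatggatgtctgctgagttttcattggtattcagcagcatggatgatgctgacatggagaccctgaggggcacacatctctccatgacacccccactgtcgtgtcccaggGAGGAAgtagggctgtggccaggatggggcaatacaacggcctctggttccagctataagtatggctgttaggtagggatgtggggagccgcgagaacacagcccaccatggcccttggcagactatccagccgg
Ms4a3 promoter, minus strand: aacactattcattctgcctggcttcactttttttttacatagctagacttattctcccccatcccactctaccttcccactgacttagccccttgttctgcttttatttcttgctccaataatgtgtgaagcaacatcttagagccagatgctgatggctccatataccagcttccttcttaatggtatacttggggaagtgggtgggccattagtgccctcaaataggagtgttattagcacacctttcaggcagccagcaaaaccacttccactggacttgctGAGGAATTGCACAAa
The C/EBP motif occurred in 10.8%, the ETS motif in 28.3% and the MYB motif in 4.45% of 32851 promoters of the same length. In the Ms4a3 window the ETS and C/EBP matches are adjacent and lie after the start site. These matches describe letters and not binding.

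The 6 libraries held 3007 to 4919 cells in the table and 28796862 to 44308479 UMIs. Members had median depths of 10666, 11916 and 8583.5 UMIs in WT replicates 1 to 3 and of 12173, 14883 and 11182 UMIs in Mettl3KO replicates 1 to 3. WT replicate 3 stood apart by its mature neutrophil RNA. The 24 secondary granule and neutrophil genes, which include the rule genes Fcnb, Ngp, Camp and Ltf, summed to 87578 CPM (each library's UMIs scaled to the same total) in its other kept cells, against 5638 and 9950 CPM in the other WT libraries and 2542 to 7187 CPM in Mettl3KO. In members the same sum was 3914 CPM in WT replicate 3 and 1850 to 3043 CPM in the other libraries. Across libraries, 303 cell barcodes occurred more than once, which touched 161 members. Scrublet marked 248 kept cells (1.02%) as doublets, 77 of them members.

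Elane is high in members by the rule, and the levels of 3 markers that the rule did not use, Ms4a3, Ctsg and Mpo, are given beside it. Levels here are means over libraries of the library's average cell, in UMIs per 10000. Elane averaged 135 ± 4.55 (SD, n = 3) in WT members and 110 ± 15.3 in Mettl3KO members. Ms4a3 averaged 15.95 ± 0.835 and 17.6 ± 0.933, Ctsg 48.9 ± 4.90 and 48.5 ± 3.95, and Mpo, the myeloperoxidase of the primary granules, 73.9 ± 10.1 and 64.0 ± 5.22 in the 2 genotypes in that order. Prtn3, proteinase 3, averaged 62.2 ± 4.36 and 63.8 ± 1.42. After thinning each cell to 3000 UMIs, Ms4a3 was detected in 91.5% of WT members and in 5.35% of WT cells rich in Car1 RNA, which are erythroid and should lack it. Without thinning these shares were 98.4% and 24.6%. Car1-rich cells numbered 1729, with a median Elane level of 0.870 per 10000, and 0.463% of them reached 15. The 3 markers were not limited to the class. In summed WT cells Ms4a3, Ctsg and Mpo were at 3071, 7210 and 10065 CPM in later cells, which had reached the Fcnb limit. In WT cells with Mpo that had not reached the Elane limit, they were at 326, 1968.5 and 3091.5 CPM. The class differs from its neighbours by construction, so the contrast with other cells is a description and no test was made.

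At the edges of the rule the values changed gradually. The 272 cells with Elane between 10 and 15 per 10000 averaged 4.81 for Ms4a3, 20.4 for Ctsg and 36.1 for Mpo, and the 227 members with Elane between 15 and 20 averaged 5.86, 24.0 and 40.8. On the Fcnb side, the 300 members with Fcnb between 3 and 5 averaged 254 for Elane and the 202 cells with Fcnb between 5 and 7 averaged 273.

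Other lineages contributed little RNA to members. Monocyte genes were the exception: 1333 members (22.1%) had Irf8, Csf1r, Ly86 and F13a1 summing to 10 or more per 10000. That share was 26.3%, 22.1% and 23.2% in WT and 17.95%, 13.3% and 21.8% in Mettl3KO, with the lowest WT value above the highest Mettl3KO value. The exact permutation test gave p = 0.1, the smallest that 3 against 3 libraries allow. B cell RNA was present at the summed limit of 20 per 10000 in 76 members, basophil or mast cell RNA in 60, erythroid RNA in 50, megakaryocyte RNA in 6 and dendritic cell RNA in 4. Of the 10 T and NK cell genes in the table, 9 had UMIs in members and Cd8a was at 0, and the list summed to 3.14 to 11.2 CPM per library.

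Members spread along the Elane level, from the rule's limit of 15 to 468 per 10000 with a median of 107. Summed over WT members in 5 Elane bins, Cd34, a progenitor surface sialomucin, went from 186 ± 22.3 CPM (SD, n = 3) between 15 and 30 to 12.7 CPM at 240 or more. Irf8, a transcription factor of the monocyte and dendritic branch, went from 466 ± 66.2 to 24.0 CPM across the same bins. Ms4a3 went from 527 ± 29.6 to 2996 ± 72.3 CPM, and Gfi1, a repressor required for neutrophil fate, from 9.88 ± 5.87 to 73.3 ± 3.71 CPM. Cebpe stood at 44.8 ± 14.9 CPM in the lowest bin and 356 ± 31.4 CPM in the highest. S100a8, a calcium-binding alarmin of neutrophils, stood at 341 ± 414 and 6593 CPM, with the wide lowest-bin spread set by 819 CPM in WT replicate 3 against 96.0 and 109 CPM in the others. Mpo moved less, from 4464 to 9988 CPM. Irf8 and Cd34 RNA was highest at low Elane, and Cebpe and S100a8 RNA at high Elane, inside a class defined by Elane and Fcnb.

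**Figure D1:**
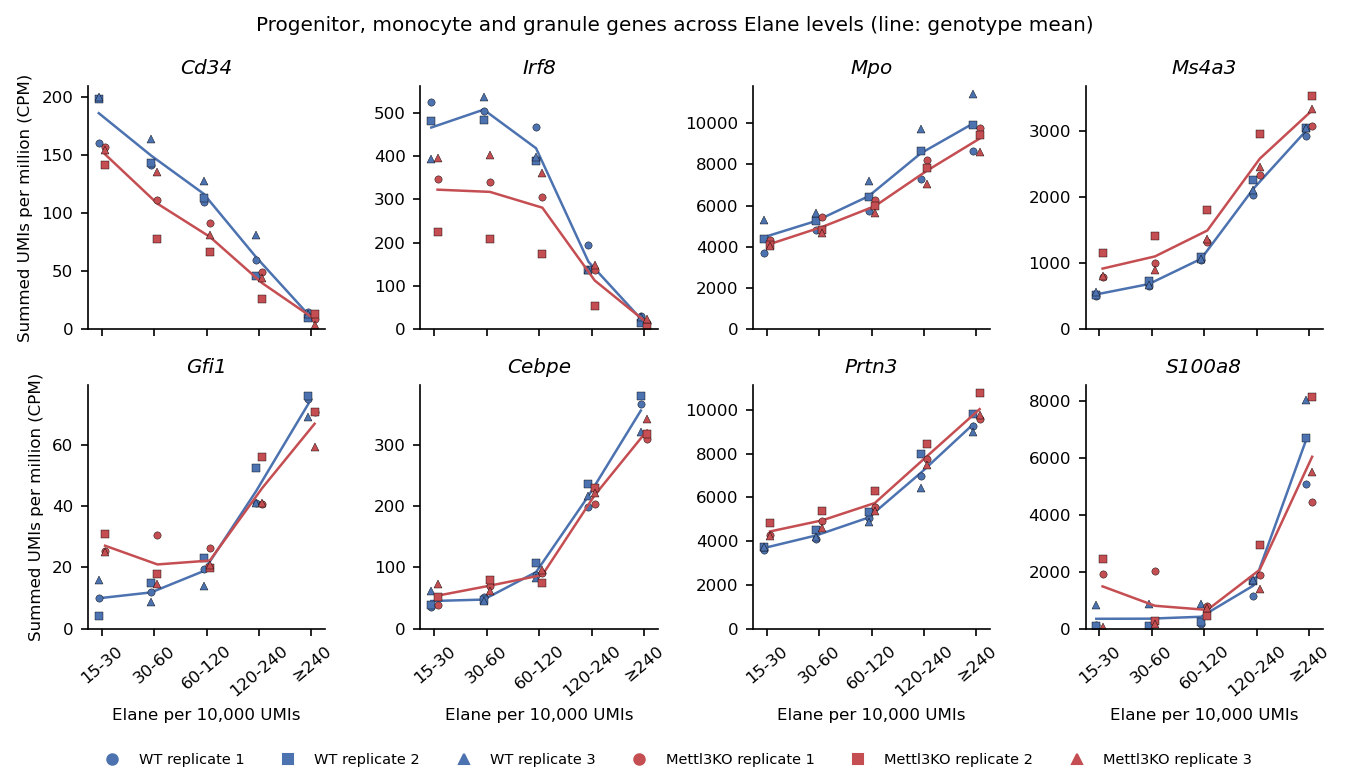
CPM (linear axes) of 8 genes in members, by Elane level in UMIs per 10000; points are libraries and lines are genotype means. Cd34 and Irf8 are high at low Elane, Gfi1, Cebpe and S100a8 at high Elane, and the Ms4a3 points of Mettl3KO lie above those of WT at low Elane.

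Members made up a smaller share of LK cells in the Mettl3KO libraries, though WT replicate 3 lay close to the Mettl3KO range. The shares were 35.9%, 34.1% and 21.5% in WT and 19.6%, 15.003% and 20.9% in Mettl3KO, or 30.5 ± 7.83% and 18.5 ± 3.09% (SD, n = 3). WT replicate 3, at 21.5% with an exact 95% binomial interval of 20.3% to 22.8%, lay next to Mettl3KO replicate 3, at 20.9% with an interval of 19.7% to 22.05%, and these intervals, which cover counting error only, overlap. The point values of the groups did not overlap, and the two-sided exact permutation p was 0.1, the smallest possible, or 0.293 after Benjamini-Hochberg adjustment over 41 library measures. The difference of -12.0 percentage points was -16.5 without WT replicate 3. As a share of granulocyte-lineage cells the order changed. Those shares were 70.6%, 69.2% and 37.6% in WT and 66.0%, 66.7% and 70.7% in Mettl3KO (exact permutation p = 0.8), with WT replicate 3, the library rich in mature neutrophil RNA, far below the rest. A share is relative, so fewer members and more of other cells cannot be told apart.

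Members also had lower Elane levels in the Mettl3KO libraries. The median level was 113, 122 and 114 per 10000 in WT and 99.1, 71.6 and 103 in Mettl3KO, without overlap. The share of members at 240 or more was 13.2%, 13.3% and 19.3% in WT and 10.7%, 4.30% and 8.37% in Mettl3KO, again without overlap. Mettl3KO replicate 2 was lowest in both. Members were deeper than the other kept cells of their library by 1.43, 1.34 and 1.65 times in WT and by 1.88, 2.18 and 1.73 times in Mettl3KO. Elane and depth enter the rule or its ratios, so these values describe how the cut falls in each genotype and no test is given.

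**Figure D2:**
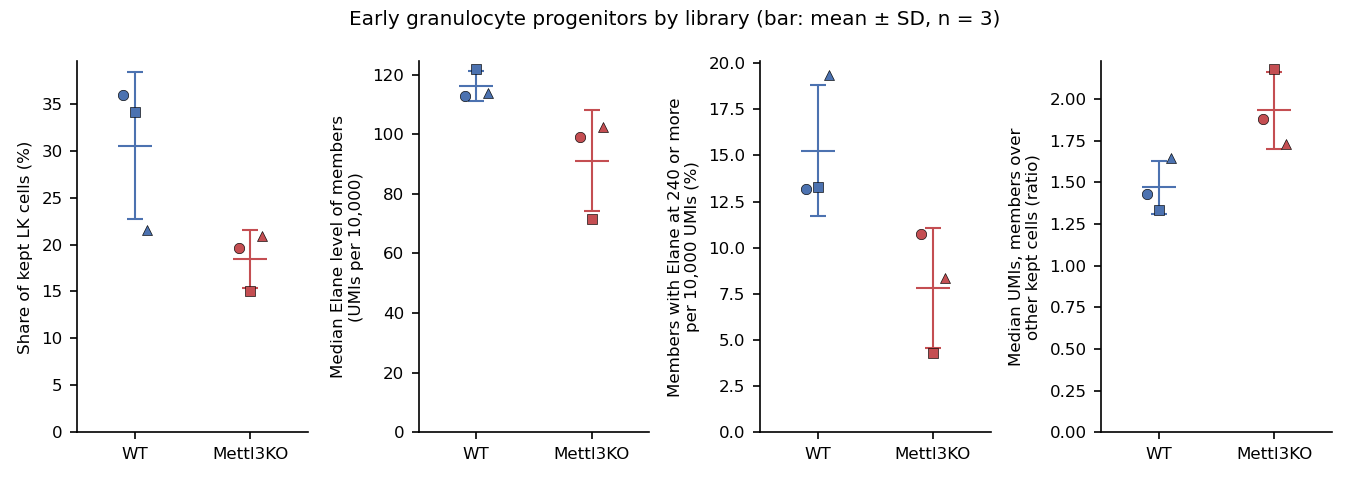
Share of kept LK cells, median Elane level, share of members with Elane at 240 or more per 10000 UMIs, and the ratio of median UMIs between members and other kept cells, for each library, with mean and SD (n = 3). The WT and Mettl3KO points do not overlap in any panel, and WT replicate 3 at 21.5% is close to Mettl3KO replicate 3 at 20.9% in the first.

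The genotype comparison summed the UMIs of members per library and tested 10723 genes with edgeR's quasi-likelihood test. At an adjusted p under 0.05, 142 genes (1.32%) differed, 77 higher (0.718%) and 65 lower (0.606%) in Mettl3KO. Without adjustment 1660 genes (15.5%) had p under 0.05, and the CPM of the genotypes did not overlap for 2370 genes (22.1%). The count was 56 without WT replicate 2, 68 without WT replicate 3, 73 without Mettl3KO replicate 1 and 77 without Mettl3KO replicate 2, and 38 of the 142 genes passed in each of the 6 fits that left out 1 library. The median log2 fold change of the genes tested was -0.01. Mettl3 itself was at 13.7, 14.9 and 14.1 CPM in WT against 9.80, 9.29 and 9.20 CPM in Mettl3KO, a log2 fold change of -0.59 ± 0.11 (SE, adjusted p = 0.021). The groups did not overlap, but the adjusted p lay between 0.043 and 0.10 when single libraries were left out and passed the threshold in 1 of these 6 fits, the one without WT replicate 1 (the others: 0.10 without WT replicate 2, 0.051 without WT replicate 3, and 0.060, 0.057 and 0.063 without Mettl3KO replicates 1, 2 and 3). Since 3′ tags may lie outside the deleted part, the Mettl3 level does not measure recombination. Of 11 other tested genes of the m6A writer complex and 13 readers and erasers, edgeR called 0, with 0 and 1 at an unadjusted p under 0.05, and DESeq2 also called 0.

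No primary granule gene was called in the summed members. None of 20 tested genes of the list, Elane left out as a rule gene, passed the threshold in either direction, with a median log2 fold change of -0.01 and 5 genes higher and 3 lower at an unadjusted p under 0.05. DESeq2 called 1 as higher. Ms4a3 was at 1454, 1648 and 1588 CPM in WT against 1629, 1901 and 1747 CPM in Mettl3KO (log2 0.17 ± 0.07, adjusted p = 0.29). Ctsg had a log2 fold change of -0.01 ± 0.08, Mpo of -0.22 ± 0.09 and Prtn3 of 0.05 ± 0.07, with adjusted p of 0.97, 0.28 and 0.78. Nkg7, a granule membrane protein, stood at -0.03 ± 0.07. Among myeloid transcription factors, Cebpa stood at -0.08 ± 0.09, Cebpe at -0.25 ± 0.09 and Gfi1 at -0.05 ± 0.10, none past the threshold. The list's 1 called gene of 25 tested was Id3, an inhibitor of E proteins that lymphoid cells also use, at 0.48 to 0.97 CPM in WT against 2.40 to 4.13 CPM in Mettl3KO (adjusted p = 0.011, or 0.057 without WT replicate 2). In the other kept cells Id3 was at 23.5, 8.48 and 10.6 CPM in WT against 45.0, 73.1 and 70.4 CPM in Mettl3KO. The part of their RNA in the Id3 call was not tested. Irf8 was at 339, 277 and 275 CPM in WT against 239, 157 and 288 CPM in Mettl3KO, with overlap (log2 -0.38 ± 0.16, adjusted p = 0.29), and 0 of 16 monocyte progenitor genes were called, with 4 lower and 0 higher at an unadjusted p under 0.05 and 0 called by DESeq2.

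Among members of low Elane level, 5 of 20 primary granule genes differed between genotypes. Because the genotypes differed in Elane level, members with Elane from 15 to under 60 per 10000 (928 WT and 718 Mettl3KO cells) were fitted on their own, a choice made after the levels by Elane bin had been seen. Elane itself is lower in Mettl3KO members, so cells in the same Elane window may stand at different stages in the 2 genotypes, and stage and genotype cannot be told apart in this fit. Of 9202 genes tested there, 169 (1.84%) passed an adjusted p under 0.05. Of 20 primary granule genes, 5 rose and 0 fell: Ms4a3, Prss57, Dmkn, Hp and Nkg7. Ms4a3 was at 599, 675 and 617 CPM in WT against 925, 1300 and 893 CPM in Mettl3KO, a log2 fold change of 0.72 ± 0.12 (SE, adjusted p = 0.0062). Prss57, a further serine protease of neutrophil granules, was at 82.6, 84.9 and 78.4 CPM in WT against 148, 176 and 110 CPM in Mettl3KO (0.81 ± 0.13, adjusted p = 0.0050). Gfi1, named after its values were seen, rose from 11.5 ± 0.355 to 23.2 ± 5.07 CPM (1.01 ± 0.19, adjusted p = 0.013), and Cebpe from 47.0 ± 4.31 to 64.5 ± 5.12 CPM (0.47 ± 0.11, adjusted p = 0.048). In the same fit, of 16 monocyte progenitor genes, 2 fell and 0 rose: Lgals3, galectin-3, from 88.2 ± 18.2 to 43.2 ± 14.9 CPM (-1.01 ± 0.19, adjusted p = 0.015), and Klf4, a monocyte transcription factor, from 36.2 ± 4.35 to 18.99 ± 5.79 CPM (-0.91 ± 0.19, adjusted p = 0.022). Of 23 myeloid transcription factors, 2 rose (Gfi1 and Cebpe) and 2 fell (Klf4 and Zeb2). Zeb2, a transcription factor of the monocyte and dendritic branch, fell by 0.57 ± 0.12 (adjusted p = 0.022), and Cst3, cystatin C, by 0.36 ± 0.09 (adjusted p = 0.049). Of 16 stem and multipotent genes, 2 fell, Sox4 by 0.50 ± 0.11 and Cd27 by 0.39 ± 0.09 (adjusted p of 0.036 and 0.048), and 2 rose, Ly6a and Ifitm1. Genes of other lineages moved in this fit too, with 6 of 8 B cell genes higher and 0 lower, and 13 of 19 erythroid genes lower and 1 higher. Irf8 was at 491 ± 20.2 and 322 ± 100 CPM (-0.61 ± 0.16, adjusted p = 0.065), and Mpo and Ctsg had log2 fold changes of -0.09 ± 0.08 and 0.04 ± 0.09.

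Single libraries bore on some of these low-Elane calls. Ms4a3, Prss57 and Dmkn passed in each of the 6 fits that left out 1 library, while Gfi1 and Hp passed in 3, and Cebpe and Nkg7 in 1. Lgals3 passed in 5 of them, Zeb2 in 3, Klf4, Ly6a and Ifitm1 in 2, Sox4 and Cst3 in 1 and Cd27 in 0. The count of higher primary granule genes was 3 without WT replicate 1, WT replicate 2 or Mettl3KO replicate 1 and at most 6 in the other fits. The count over all genes was 58, 66 and 77 without WT replicates 1, 2 and 3, and 108, 81 and 219 without Mettl3KO replicates 1, 2 and 3. S100a8 stood at 109, 96.0 and 819 CPM in WT against 1929, 2446 and 60.5 CPM in Mettl3KO in the lowest Elane bin, so neutrophil RNA varied between libraries there, and its part in the calls was not tested. Between Elane 60 and 240 per 10000, Ms4a3 had a log2 fold change of 0.31 ± 0.08 and an adjusted p of 0.12, Prss57 of 0.28 ± 0.09 and 0.17, and Gfi1 of 0.01 ± 0.12 and 0.99. Whether the effect differed between the Elane ranges was not tested.

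Nrg1 had the firmest fall among genes carried mainly by members. It encodes neuregulin 1, a ligand of the ERBB receptors, and was named after its values were seen because its mean of 14.4 CPM lies under the rule's 20 CPM. Nrg1 (GRCm38 chr8:31814551-32884029, minus strand) was at 24.1, 20.8 and 20.7 CPM in WT against 5.76, 7.23 and 7.53 CPM in Mettl3KO. The log2 fold change was -1.69 ± 0.13 (SE, adjusted p = 7.7e-05), and it stayed between -1.82 and -1.57 in the alternatives. In the other kept cells it was at 1.72 ± 0.259 and 0.498 ± 0.123 CPM (SD, n = 3). In the lowest Elane bin Nrg1 was at 19.99 to 27.8 CPM in WT against 0.909 to 5.34 CPM in Mettl3KO.

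Further genes fell in Mettl3KO members, among them a cell cycle inhibitor. Cdkn2c, the CDK4 and CDK6 inhibitor p18, was at 27.9, 25.2 and 31.4 CPM in WT and at 16.8, 10.6 and 7.62 CPM in Mettl3KO (log2 -1.26 ± 0.20, adjusted p = 0.0089). The groups did not overlap, and the call held in each fit that left out 1 library. Tfpi, an inhibitor of tissue factor, fell by 0.90 ± 0.14 on the log2 scale, Ldhb, a lactate dehydrogenase subunit, by 0.87 ± 0.14, Cpq, a carboxypeptidase, by 0.79 ± 0.13, Serpinf1, the secreted factor PEDF, by 0.69 ± 0.10, and Tceal8 by 0.59 ± 0.09. Their adjusted p lay between 0.0036 and 0.011, and each call held in the 6 fits that left out 1 library. Mgl2, a C-type lectin, fell by 0.73 ± 0.15 (adjusted p = 0.036, and 0.077, 0.11, 0.10 and 0.065 without WT replicates 1, 2 and 3 and Mettl3KO replicate 3).

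Among the genes that rose were Serpina3g, Tfrc, Pim1 and Mt1. Serpina3g, an intracellular inhibitor of cysteine proteases, was at 12.7, 19.7 and 13.8 CPM in WT against 47.8, 44.5 and 46.5 CPM in Mettl3KO (log2 1.59 ± 0.13, adjusted p = 0.00013). The other kept cells of the same libraries were at 32.7 ± 4.19 and 273 ± 69.5 CPM for this gene. Tfrc, the transferrin receptor that takes up iron, was at 31.2, 29.5 and 26.5 CPM in WT against 59.7, 84.8 and 52.4 CPM in Mettl3KO (1.15 ± 0.15, adjusted p = 0.0018), while the other kept cells were at 64.2 ± 0.851 and 67.5 ± 16.7 CPM. The genotypes did not overlap for either gene. Pim1, a serine/threonine kinase downstream of cytokine receptors, was at 38.7, 35.1 and 37.2 CPM and at 61.6, 105 and 60.6 CPM (1.02 ± 0.17, adjusted p = 0.011, or 0.058 without WT replicate 2). Mt1, a metallothionein that binds zinc and copper, was at 636, 678 and 619 CPM and at 802, 1080 and 974 CPM (0.56 ± 0.09, adjusted p = 0.011), whereas the other kept cells were at 511 ± 76.0 and 399 ± 39.8 CPM.

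Smaller rises followed. AB124611 rose by 0.60 ± 0.11 on the log2 scale, Them6, a thioesterase superfamily member, by 0.55 ± 0.10, Lgals3bp, a secreted galectin ligand, by 0.53 ± 0.11, and Ffar2, a receptor for short-chain fatty acids, by 0.51 ± 0.11. Their adjusted p lay between 0.016 and 0.046 and rose to at most 0.15 when single libraries were left out. AB124611 lost its call without Mettl3KO replicate 1 (0.058) and Them6 without WT replicates 1, 2 and 3 (0.076, 0.072 and 0.051). Lgals3bp kept it in the fit without WT replicate 3 alone (0.10, 0.079, 0.057, 0.098 and 0.093 without the others in library order), and Ffar2 in the fit without WT replicate 2 alone (0.15, 0.13, 0.11, 0.13 and 0.060).

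**Figure D3:**
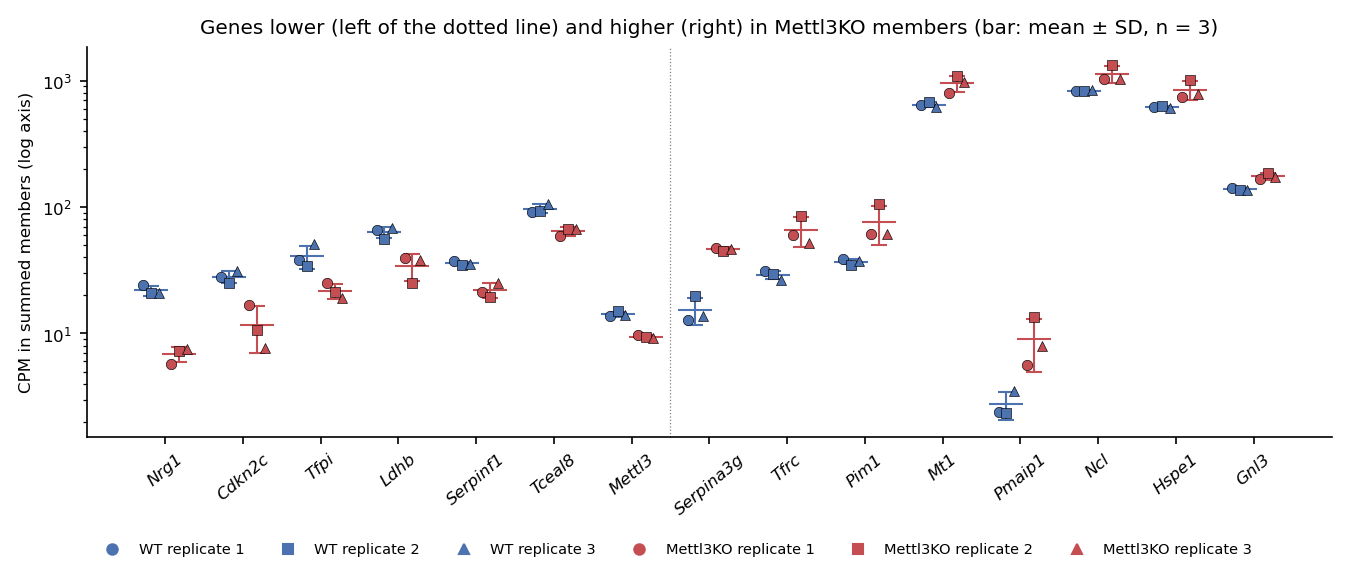
CPM in summed members of 15 genes (log axis) for each library, with mean and SD (n = 3); genes left of the dotted line are lower in Mettl3KO and genes to its right higher. Nrg1 drops from 20.7 to 24.1 CPM in WT to 5.76 to 7.53 CPM in Mettl3KO, and Serpina3g lies at 44.5 to 47.8 CPM in Mettl3KO against 12.7 to 19.7 CPM in WT.

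Growth genes gave few calls, and in 1 direction. Of 40 MYC target genes, 5 rose and 0 fell, and 39 of the 40 had a positive log2 fold change, with a median of 0.22 against -0.01 over the genes tested. Over all genes tested, 0.718% were called higher and 0.606% lower. Ncl, the nucleolar protein nucleolin, was at 827, 822 and 839 CPM in WT against 1028, 1335 and 1035 CPM in Mettl3KO (0.45 ± 0.09, adjusted p = 0.029). Hspe1, a mitochondrial chaperonin, was at 616, 625 and 607 CPM and at 743, 1019 and 781 CPM (0.46 ± 0.10, adjusted p = 0.040). Gnl3, nucleostemin, stood at 138 ± 2.51 and 174 ± 10.0 CPM (0.34 ± 0.07, adjusted p = 0.029). Mettl3KO replicate 2 was highest for these 3 genes. Gnl3 lost its call in each of the 6 fits that left out 1 library (adjusted p of 0.057 to 0.12). Ncl and Hspe1 lost theirs without WT replicate 1, 2 or 3 (0.08 to 0.11 and 0.099 to 0.12) and kept them in the other fits. The count of 5 became 2, 1 and 1 without WT replicates 1, 2 and 3 and 3 without Mettl3KO replicate 2. Tfrc was 1 of the 5, with the list's largest log2 fold change (1.15), and also belongs to the erythroid list. It kept its call without WT replicate 2 or 3 (adjusted p of 0.01 in both), so it was the 1 gene left there. The list summed to 11893 to 12056 CPM in WT members and 12911 to 16209 CPM in Mettl3KO members, and to 11591 to 14167 and 13806 to 14961 CPM in the other kept cells. Myc itself was at 107 to 139 and 106 to 121 CPM (-0.08 ± 0.10), and Mxd4, a MAX partner that opposes MYC, fell by 0.56 ± 0.12 (adjusted p = 0.045, with 0.056 to 0.13 when single libraries were left out).

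Mitochondrial ribosomal protein genes also had mostly positive values. The test called 2 of 73 as higher, against 0.718% of all genes tested: Mrpl12 and Mrps34 (both 0.34 ± 0.07, adjusted p of 0.036 and 0.039). Of the 73, 71 had a positive log2 fold change, with a median of 0.16 against -0.01 over the genes tested. Neither call held when any single library was left out (adjusted p of 0.057 to 0.12). None of 83 cytosolic ribosomal protein genes was called, with 37 positive, 46 negative and a median of -0.01. Of 81 respiratory chain genes, 1 was called: Cox6b2, an isoform of a complex IV subunit, fell by 0.58 ± 0.09 (adjusted p = 0.0083).

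No list of cell cycle phase genes held a call. None of 29 G1/S and replication genes and none of 26 G2/M and mitosis genes was called, with medians of 0.02 for both and 2 and 0 genes at an unadjusted p under 0.05, and DESeq2 called 0 in both. Of 10 CDK inhibitors and D cyclins, 1 rose and 2 fell. Ccnd1, cyclin D1, rose from 5.78 ± 1.10 to 13.3 ± 1.89 CPM (1.198 ± 0.17, adjusted p = 0.0036), Cdkn2c fell as given above, and Cdkn1b, the inhibitor p27, was at 12.6 ± 1.32 and 8.16 ± 1.02 CPM (-0.61 ± 0.14, adjusted p = 0.049, above 0.05 in each of the 6 fits that left out 1 library). Pmaip1, the pro-apoptotic protein NOXA, rose from 2.75 ± 0.663 to 9.04 ± 4.08 CPM (1.72 ± 0.29, adjusted p = 0.012, or 0.065 without WT replicate 2). Bcl2, an inhibitor of apoptosis, was at 44.7 ± 1.93 and 32.9 ± 2.62 CPM (-0.44 ± 0.08, adjusted p = 0.025, with 0.024 to 0.079 when single libraries were left out and a loss of the call in 5 of 6). Pmaip1 was the 1 gene called of 21 p53 targets, whose median log2 fold change was -0.08.

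Interferon-stimulated genes were called in 2 of 33 cases, both higher: Lgals3bp and Iigp1, an immunity-related GTPase at 0.11 to 1.58 CPM in WT against 2.37 to 4.80 CPM in Mettl3KO (adjusted p = 0.039, and 0.11, 0.15, 0.12 and 0.074 without WT replicate 1, WT replicate 2, Mettl3KO replicate 1 and Mettl3KO replicate 2). The list's median log2 fold change was 0.29, and Isg15 was at 5.59 to 9.09 and 7.38 to 10.1 CPM. The list summed to 526 to 591 CPM in WT members and 629 to 634 CPM in Mettl3KO members, and to 705 to 732 and 1172 to 1319 CPM in the other kept cells. The test called 0 of 17 MHC class I and immunoproteasome genes, 0 of 10 RNA sensing and editing genes, 0 of 23 stress and unfolded protein response genes, 0 of 15 immediate early genes, 0 of 25 cytokine receptors, 0 of 18 glycolysis genes and 0 of 20 cholesterol synthesis genes. Counts at an unadjusted p under 0.05 for these lists were 9, 1, 6, 2, 7, 6 and 1, and DESeq2 called 3, 0, 1, 0, 0, 1 and 0. Over all genes tested, edgeR gave an unadjusted p under 0.05 for 15.5%. Kit was at 32.7 to 38.2 CPM in WT against 25.4 to 30.5 CPM in Mettl3KO (-0.31 ± 0.09, adjusted p = 0.13).

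The called genes also included many that belong to other lineages. Of 11 tested B cell genes, 8 were higher and 0 lower, with a median log2 fold change of 1.68. Vpreb1, a component of the pre-B cell receptor, was at 15.3, 15.9 and 16.1 CPM in WT members and 34.4, 68.7 and 54.1 CPM in Mettl3KO members (1.72 ± 0.19, adjusted p = 0.00102). Its level in the other kept cells was 99.98 ± 46.7 and 510 ± 136 CPM. Igll1, Vpreb3 and Ebf1 rose by 1.80 ± 0.20, 1.62 ± 0.18 and 1.66 ± 0.21 on the log2 scale. The whole list, 14 of 14 genes with UMIs in members, summed to 107 to 120 CPM in WT members and 199 to 341 CPM in Mettl3KO members, and to 412 to 931 and 2119 to 3631 CPM in the other kept cells. The order of the 3 Mettl3KO libraries was the same in members and in other cells, while that of the WT libraries was not. Members carried 11.6%, 25.99% and 23.3% of the level of other cells in WT and 9.38%, 9.38% and 8.46% in Mettl3KO. Car1-rich erythroid cells carried 48.3 to 75.4 CPM of the list in WT and 82.7 to 271 CPM in Mettl3KO. The part of RNA from other cells in this rise was not tested.

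Erythroid genes went the other way. Of 20 tested, 11 fell and 1, Tfrc, rose, with a median of -1.25. Car1, carbonic anhydrase 1, was at 42.5, 40.3 and 50.8 CPM in WT members and 7.30, 3.39 and 15.8 CPM in Mettl3KO members (-2.23 ± 0.28, adjusted p = 0.0019), with 1335 ± 222 and 318 ± 61.5 CPM in the other kept cells. Car2, Apoe, Blvrb and Fam132a fell by 1.21 ± 0.14, 1.11 ± 0.14, 0.89 ± 0.12 and 0.66 ± 0.11. Unlike Car1, Car2, Blvrb and Fam132a, Apoe was not lower in the other kept cells of Mettl3KO, at 349, 303 and 349 CPM in WT against 383, 407 and 342 CPM in Mettl3KO. The list, 20 of 20 genes with UMIs, summed to 354 to 421 CPM in WT members and 179 to 245 CPM in Mettl3KO members, and to 7184 to 9432 and 2867 to 4268 CPM in the other kept cells, so that members carried 3.75% to 5.86% of the level of other cells in WT and 4.90% to 6.25% in Mettl3KO. Without members that carried RNA of other lineages, 6 erythroid genes were lower and 2 higher, and B cell genes still gave 8 higher. The erythroid count was 5 without Mettl3KO replicate 1, 17 without Mettl3KO replicate 3, and 7 without WT replicate 2, WT replicate 3 or Mettl3KO replicate 2. The part of RNA from other cells was not tested here either. Genes at least 5 times higher in other kept cells than in members made up 24 of 77 higher and 25 of 65 lower calls, against 2.30% of the genes tested.

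**Figure D4:**
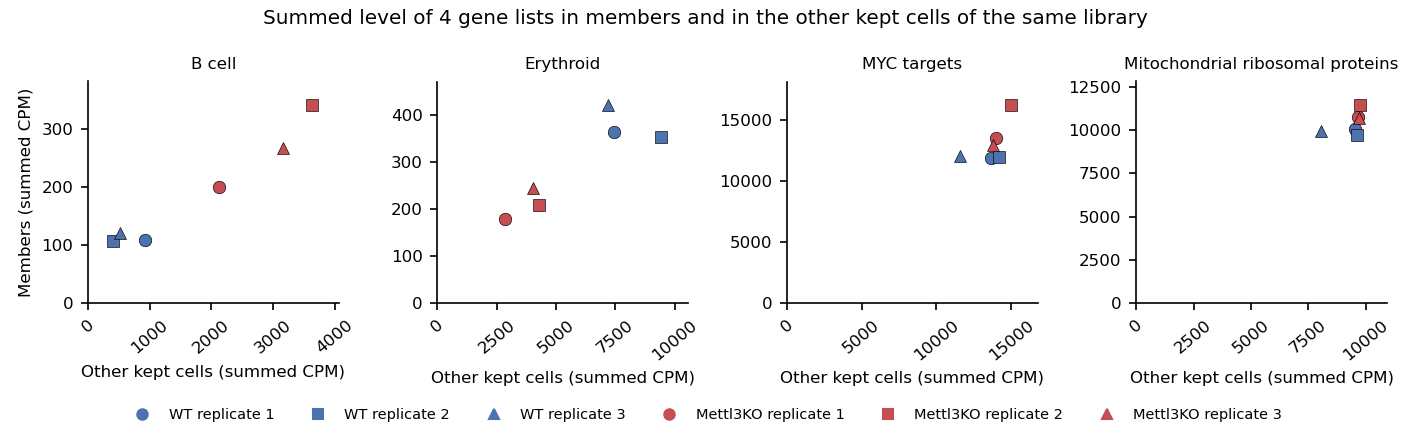
Summed CPM of 4 gene lists in members (vertical axis) against the other kept cells of the same library (horizontal axis); each point is a library. B cell sums are higher and erythroid sums lower in Mettl3KO in both kinds of cell, with members far below the other cells, while MYC target and mitochondrial ribosomal sums are of similar size in both.

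Basophil genes gave 1 call of 7 tested. Prss34, a basophil protease, was at 12.3, 51.8 and 7.27 CPM in WT members and 0.288, 1.62 and 0.613 CPM in Mettl3KO members, and at 164 ± 12.6 and 32.6 ± 19.8 CPM in the other kept cells. Its adjusted p was 0.012, or 0.060 without Mettl3KO replicate 1. Lymphoid priming genes were higher in 2 of 12 (Ltb and Dntt) and lower in 0, and megakaryocyte genes higher in 2 of 10 (Selp and Gp5). Each of these 4 genes was at least 5 times higher in other kept cells than in members. Dntt lost its call without WT replicate 1 (0.069) or 2 (0.079), and Gp5 kept it in the fit without WT replicate 3 alone, with 0.061 to 0.13 in the others. Stem and multipotent genes gave Ly6a, the antigen Sca-1, at 1.14 to 2.79 and 4.82 to 6.15 CPM (adjusted p = 0.012, or 0.054 without Mettl3KO replicate 1), and Cd27, a TNF receptor family member, which fell by 0.38 ± 0.08 (adjusted p = 0.046, above 0.05 in each fit that left out 1 library). In the other kept cells Ly6a was at 14.5, 22.6 and 10.1 CPM in WT against 67.6, 69.1 and 65.0 CPM in Mettl3KO. The part of their RNA in the Ly6a call was not tested. Macrophage and dendritic cell genes gave 0 of 4 and 0 of 7 calls, with 1 and 6 at an unadjusted p under 0.05 and 0 and 1 called by DESeq2. Cybb, the phagocyte oxidase subunit, was the 1 called gene of 15 secondary granule and neutrophil genes and of 12 oxidase genes, at 25.6 to 28.5 and 32.5 to 37.7 CPM (0.38 ± 0.09, adjusted p = 0.0498, with 0.078 to 0.17 in 5 of the 6 fits that left out 1 library).

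The genotype effect in members was then set against that in the 835 later granulocyte progenitors, cells with Elane that had reached 5 per 10000 for Fcnb. In 1 fit over 4 cell classes with the library as a block, the difference of the effects passed the threshold for 1 of 9129 genes (0.011%), and for 361 (3.95%) at an unadjusted p under 0.05. DESeq2 also called 1. The gene was Mt2, a metallothionein, at 18.9, 20.7 and 18.2 CPM in WT members and 14.5, 19.5 and 20.4 CPM in Mettl3KO members, and at 11.1, 12.9 and 14.8 CPM and 22.7, 37.4 and 47.4 CPM in later cells. The effect in members minus that in later cells was -1.64 ± 0.29 (adjusted p = 0.011), and 0, 2 and 4 genes passed without WT replicate 1, WT replicate 2 and Mettl3KO replicate 3. Mettl3KO replicate 2 contributed 13 later cells, and without it 1 gene passed. Side by side, Tfrc had log2 fold changes of 1.15 ± 0.15 in members and 1.09 ± 0.18 in later cells, Pim1 of 1.02 ± 0.17 and 0.98 ± 0.20, Cdkn2c of -1.26 ± 0.20 and -1.92 ± 0.35, and Nrg1 of -1.69 ± 0.13 and -1.65 ± 0.47. The adjusted p of these differences was 1, which does not show that the effects are equal.

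Against 1045 cells with Mpo at 15 per 10000 or more that had not reached the Elane limit, the effect differed for 99 of 9129 genes (1.08%), 33 with a higher effect in members (0.361%) and 66 with a lower one (0.723%). At an unadjusted p under 0.05 there were 950 (10.4%). Of 20 primary granule genes, 6 had a lower effect in members and 0 a higher one: Ms4a3, Prtn3, Prss57, Hp, Dmkn and Gstm1. Elane itself is lower in Mettl3KO members, so the same Elane limit may fall at different stages in the 2 genotypes. Stage and genotype cannot be told apart in this comparison. Monocyte progenitor genes also had lower effects in members, for 5 of 16 and with 0 higher: Ccr2, Ctss, F13a1, Ly6c2 and Ms4a6c. The Mpo cells were selected with Irf8, Csf1r, Ly86 and F13a1 summing to under 10 per 10000, a limit that members did not have. F13a1, counted here, is thus a gene of that selection, and the part of the unequal limit in these differences was not tested. The median difference was -0.26 for the primary granule list and -0.88 for the monocyte progenitor list. Ms4a3 in the Mpo cells was at 346, 325 and 307 CPM in WT against 536, 788 and 553 CPM in Mettl3KO, a log2 fold change of 0.94 ± 0.12 against 0.17 ± 0.07 in members (difference -0.76 ± 0.11, adjusted p = 1.6e-05). Prtn3 was at 2196 ± 176 and 3284 ± 252 CPM in the Mpo cells (0.58 ± 0.10 against 0.05 ± 0.07). Hp, haptoglobin, was at 66.1, 53.8 and 71.0 CPM in WT against 215, 210 and 144 CPM in Mettl3KO (1.58 ± 0.14 against 0.20 ± 0.07). Cebpe went from 22.2 ± 6.99 to 67.6 ± 40.2 CPM there, with 1 of 3 Mettl3KO libraries inside the WT range (1.66 ± 0.31 against -0.25 ± 0.09), and Mt1 from 125 ± 17.8 to 438 ± 97.7 CPM (1.80 ± 0.14 against 0.56 ± 0.09). Mpo and Ctsg had differences of -0.28 ± 0.10 and 0.04 ± 0.11, with adjusted p of 0.22 and 0.95. The 24 neutrophil genes summed to 422, 430 and 1780 CPM in the WT Mpo cells and 1775, 2208 and 345 CPM in the Mettl3KO ones, without separating the genotypes.

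The reverse set was led by basophil genes. Mcpt8, a basophil protease, was at 1953, 1940 and 1922 CPM in the WT Mpo cells and 405, 929 and 482 CPM in the Mettl3KO ones, and at 60.2 to 98.8 and 68.3 to 94.0 CPM in members (difference 1.80 ± 0.13, adjusted p = 5.4e-13). Of 10 basophil and mast cell genes, 4 had a higher effect in members: Mcpt8, Cpa3, Ms4a2 and Gata2. Basophil RNA was present in 17.5%, 18.3% and 18.3% of the WT Mpo cells and in 8.33%, 9.17% and 8.33% of the Mettl3KO ones, and its part in these differences was not tested. Lmo4, a LIM-domain transcription regulator, and Ifitm1, an interferon-induced membrane protein, differed by 0.82 ± 0.10 and 1.11 ± 0.15. In members Ifitm1 was at 51.4, 84.7 and 77.4 CPM in WT against 116, 333 and 114 CPM in Mettl3KO, a difference that missed the threshold by itself (1.39 ± 0.33, adjusted p = 0.065). Pim1 and Serpina3g also had a higher effect in members, by 0.66 ± 0.15 and 0.68 ± 0.17 (adjusted p of 0.0099 and 0.033), while for Tfrc the difference was -0.16 ± 0.19 (adjusted p = 0.86). The count of 99 was 45 without WT replicate 2 and 61 without WT replicate 1.

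**Figure D5:**
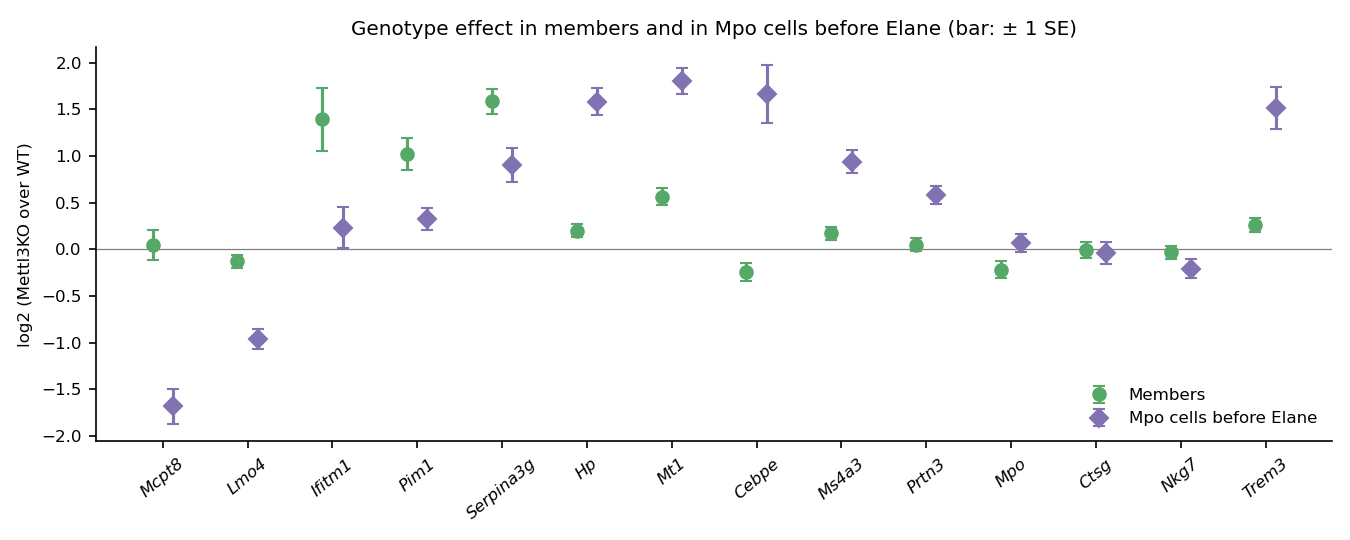
Log2 fold change of Mettl3KO over WT with its standard error in members and in Mpo cells before the Elane limit, for 14 genes. Ms4a3, Prtn3, Hp, Cebpe and Mt1 are higher in the Mpo cells, Mcpt8 and Lmo4 are lower there, and Mpo and Ctsg lie between -0.22 and 0.07 in both.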

How the data were processed

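The deposited table holds raw UMI counts per gene and cell for 27933 genes and 6 libraries, and its values are whole numbers at or above 0. The submitters' processing notes name Cell Ranger 2.2, Bowtie, TopHat, mm10 and GRCh37 without roles, while any cell filter before deposit was not given in the sources used here. The bulk table of stem and multipotent populations was not used here. Cells were grouped by library from their name prefix, and libraries by the genotype label. The members, gene lists and tests were chosen with earlier results of these data known.

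Counts of members were summed per library (6737931 to 17488599 UMIs) and tested with edgeR 4.0.16 in R 4.3.3 (filterByExpr, TMM, quasi-likelihood F test, Benjamini-Hochberg adjustment, threshold 0.05). SE is the log2 fold change divided by the root of F. Differences of effects are class by genotype terms in 1 fit over 4 classes with library as a block. Shares were compared by two-sided exact permutation over libraries, and intervals are exact binomial at 95%, covering counting error only. Genes named for the genotype effect were Mettl3, the 4 markers, the 12 largest rises and 12 largest falls among called genes of at least 20 CPM without overlap, and up to 4 genes per list by p; for each difference of effects, the 6 genes of smallest p. Other named genes were chosen after their values were seen. Of the genes this naming rule gives, 1 is not reported here. Doublets were marked with Scrublet in scanpy 1.11.5 and kept. Thinning drew 3000 UMIs per cell. On simulated data with 10628 genes, the genotype fit recovered 95% of 2-fold and 100% of 4-fold changes (log2 of 1 and 2). Of its calls there, 5.8% were false. The changed genes were drawn from those with a mean of at least 20 UMIs per library in members. The simulated spread of each gene followed from its level alone. These rates therefore do not cover genes of lower counts or genes with a wider spread than others of their level. Promoter windows were read from a RefSeq table and coordinates of genes from GENCODE, both on GRCm38. Alternatives were DESeq2 1.42.0, RLE size factors, no filter on low counts, other limits of the rule, thinning, removal of doublets, each library left out and a replicate block.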

Additional observations from a re-analysis of the deposited data

Results flagged for a closer look

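A set of 8 results stands out because the genotype effect in early granulocyte progenitors differed from that in a neighbouring cell class by a test of the difference itself. Against the later progenitors with Fcnb, Mt2 differed by -1.64 on the log2 scale, members minus later cells. Against the Mpo cells that had not reached the Elane limit, 99 genes differed. The 6 with the smallest p were Mcpt8 at 1.8, Hp at -1.38, Mt1 at -1.24, Cebpe at -1.92, Lmo4 at 0.822 and Ifitm1 at 1.11. The Elane limit may fall at different stages in the 2 genotypes, so stage and genotype cannot be told apart in the comparison with Mpo cells.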

How the results depend on the processing

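The count of 142 genes that differed between genotypes was 225 with DESeq2, 701 without a filter on low counts, 94 with Elane at 30 or more, 57 after thinning and, in an alternative chosen after seeing the data, 88 with Elane from 60 to 240. It ranged from 56 to 153 when 1 library was left out, and the cause was not tested. The share of higher genes among the calls moved from 77 of 142 to 150 of 225 with DESeq2. Of these calls, 125 were shared with DESeq2 and 45 with the thinned fit. The difference from later cells, 1 gene, was 24 without the filter, 0 with Elane at 30 or more, without RNA of other lineages, with Elane from 60 to 240, after thinning and without doublets, 11 with Elane from 15 to 60 (also chosen after seeing the data), and 0 to 4 when 1 library was left out. The difference from Mpo cells, 99 genes, was 150 without the filter, 20 after thinning, 38 with Elane from 15 to 60, and 45 to 99 when 1 library was left out. The share difference of -12.0 percentage points turned to 8.66 among granulocyte-lineage cells and lay between -8.05 and -12.6 under the other member rules, and between -9.31 and -16.5 without single libraries. The value of 8.66 (exact permutation p = 0.8) rests on WT replicate 3, at 37.6%. The other WT libraries, at 70.6% and 69.2%, lay above the Mettl3KO mean of 67.8%. Replicate numbers did not pair the samples (same-number correlations of -0.026, -0.041 and -0.061): with the replicate block 170 genes passed, and the share difference was -12.0 with a sign-flip p of 0.25, the smallest this exact test allows. Over the named genes and alternatives, 3279 values kept their side of the threshold, 232 lost it, 154 gained it and 0 reversed. Later cells and Mpo cells give less depth: on simulated data the tests of the differences recovered 54% and 69% of 2-fold changes (log2 of 1). Of their calls there, 7.3% and 3.5% were false. These simulations had the same limits on counts and spread as that of the genotype fit.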
